A study of Mus musculus with 48 samples.

Results

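The 12-h component of gene expression was examined in the 24 nodose ganglion libraries of a series of 48, by setting the 12 libraries of zeitgeber times 4 and 16 (ZT4 and ZT16, in hours from lights on) against the 12 of ZT10 and ZT22, with genotype as a covariate. The libraries were chosen by label and by no measured value, but with earlier results of these data known. All mice were male C57Bl/6J animals carrying floxed alleles of Rev-erba and Rev-erbb (Nr1d1 and Nr1d2), which encode nuclear receptors that repress transcription within the circadian clock, so the controls carried the floxed alleles too. At 6 to 10 weeks of age they received, by tail vein, AAV8-TBG-EGFP (the Control group) or AAV8-TBG-Cre (the HepDKO group). The TBG promoter is active in hepatocytes, so Cre was directed at the liver and not at the ganglion. Tissue was taken 2 to 4 weeks later, at a labelled age of 10 to 12 weeks, from mice fed chow under 12 h of light and 12 h of dark at 27 °C. Each library was made from 500 ng of RNA from the pooled left nodose ganglia of 4 mice, with 3 libraries in each of 8 groups (2 genotypes by 4 time points). The other 24 libraries came from the arcuate nucleus and serve only for the test of the difference between tissues.

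The nodose ganglion holds the cell bodies of vagal sensory neurons, which carry signals from the gut, liver, heart and lungs to the brainstem. The circadian clock of mammalian cells is a loop in which BMAL1 (encoded by Arntl) with CLOCK or NPAS2 activates the Per, Cry and Nr1d genes, whose products repress that activity in turn. Beside this 24-h rhythm, transcripts with a 12-h period have been described in mouse tissues such as the liver, among them genes of the unfolded protein response, the pathway that raises the folding capacity of the endoplasmic reticulum (ER). With 4 time points 6 h apart, a 12-h rhythm can appear only as an alternation of ZT4 and ZT16 against ZT10 and ZT22. A true 12-h rhythm, a 24-h rhythm that is not a sine wave and a departure at 1 single time point give the same contrast and cannot be told apart by it.

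Markers of sensory neurons were uneven. Of 22 vagal sensory neuron genes listed, 6 had enough counts to be tested: Lepr (10807 counts over the 24 libraries), Piezo2 (10451), Oxtr (441), Gpr65 (299), Trpv1 (237) and Scn9a (148). The other 16 had at most 107, among them Scn10a, a sodium channel of sensory neurons, with 17. Of 12 pan-neuronal genes 10 were tested, with up to 1591 counts (Uchl1), while Slc17a6, the vesicular glutamate transporter of these neurons, had 31. The libraries also held muscle and fat: 5 skeletal muscle genes (Acta1, Ckm, Mylpf, Tnnt3 and Myh4) took from 0.407% (95% Wilson interval 0.4 to 0.415) of the counts in Control ZT16 replicate 3 to 5.83% (5.81 to 5.84) in Control ZT10 replicate 1, and 5 adipocyte genes (Adipoq, Plin1, Cidec, Cfd and Fabp4) took from 0.0201% (0.0182 to 0.0223) to 0.164% (0.161 to 0.166). Intervals cover counting error only. The 5 muscle genes are only a part of the muscle counts. Ttn, a muscle gene not among them, had 8358289 counts over the 24 libraries, against 2499132 of Myh4, the highest of the 5. Among the nodose libraries, HepDKO ZT10 replicate 2 had 1694 counts of Xist, the RNA that silences an X chromosome in females, against at most 13 in any other library, which goes against its male label. Totals per library ran from 1813994 to 10422914 counts (median 6641665), and the 2 shallowest, Control ZT4 replicate 1 and Control ZT16 replicate 3 with 2889210, both lie on the ZT4 and ZT16 side. Nr1d1 itself, the gene to be deleted in the liver, was present in every library of both groups, from 14.5 to 124 CPM (counts scaled to library size) in Control and from 11.2 to 132 CPM in HepDKO, and this is no check of a deletion directed at hepatocytes.

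No gene reached an adjusted p under 0.05 for the 12-h component in the quasi-likelihood test of edgeR, adjusted by Benjamini and Hochberg's method over the 14867 genes tested, and the lowest adjusted p was 0.275. At an unadjusted p under 0.05 there were 1051 genes (7.07% of those tested, against 743 expected by chance), of which 550 (3.70%) were higher and 501 (3.37%) lower at ZT4 and ZT16. DESeq2 called 6 genes (Klhl38, Slc20a2, Banp, Fbxo32, Arntl and Dclk1), limma voom with sample quality weights called 3 (Banp, Thbd and Hcn4), and edgeR with 1 surrogate variable called 1 (Thbd). Without the library with Xist counts, 0 genes were called and 1078 had an unadjusted p under 0.05. In the same fit the 24-h component, a test of ZT4 against ZT16 and ZT10 against ZT22 together, was called for 212 genes (1.43%). No gene had all 12 libraries of ZT4 and ZT16 above, or all below, the 12 of ZT10 and ZT22.

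Among the 1051 genes the time point that stood farthest from the others was mostly ZT10 or ZT16. In 844 of them (80.3%) the means of both ZT4 and ZT16 lay on 1 side of the means of both ZT10 and ZT22, against 32.6% of all genes tested, a property that the contrast itself favours. By distance from the mean of the other times, ZT10 was farthest in 409 (38.9%), ZT16 in 365 (34.7%), ZT4 in 159 and ZT22 in 118. Over all genes tested, ZT10 was farthest in 32.5% and ZT16 in 26.7%. A complete separation of 1 time point, with its 6 libraries all above or all below the other 18, was seen in 34 genes (0.229% of those tested), 23 of them among the 1051. These shares describe genes that the same values selected and carry no test.

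**Figure D1:**
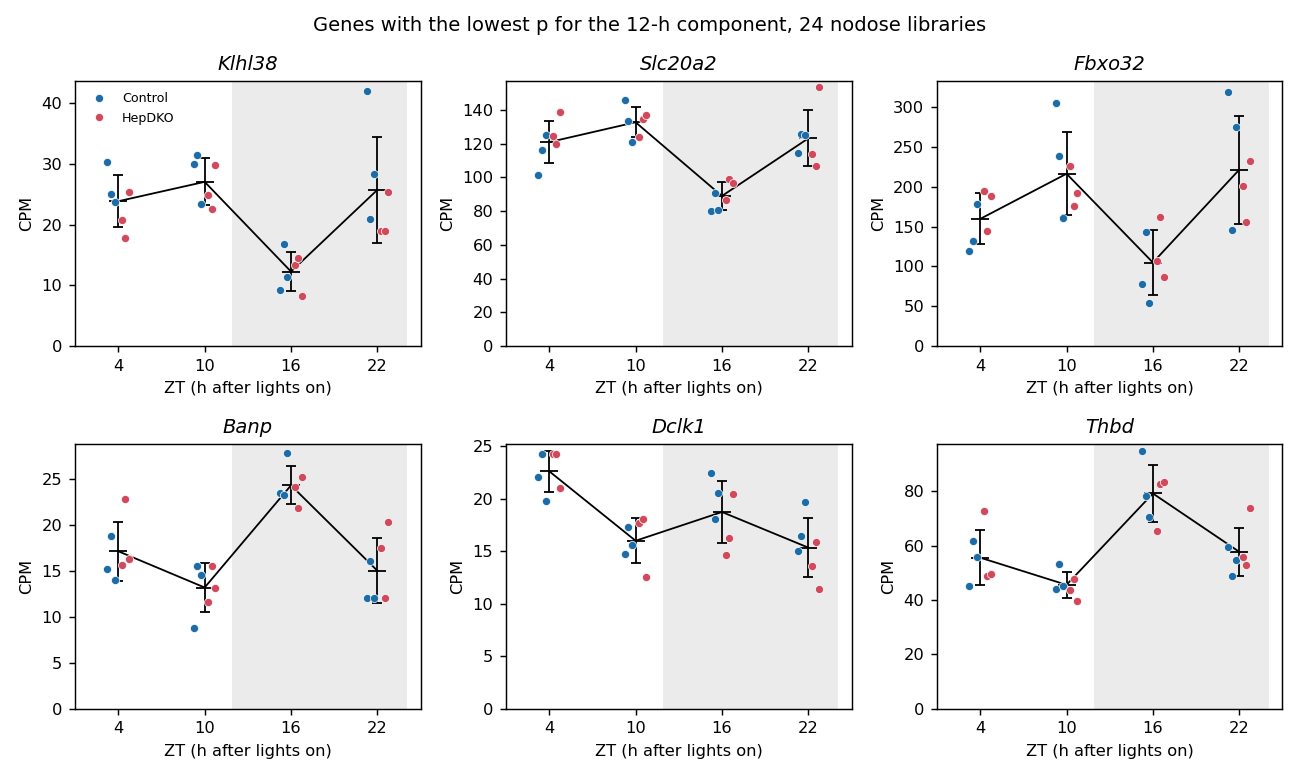
CPM of 6 of the genes with the lowest p for the 12-h component (linear axis from 0) against ZT in hours, with 1 point per library (blue Control, red HepDKO), the mean of 6 libraries and its SD in black, and the dark phase shaded. Klhl38 and Slc20a2 are low at ZT16 alone, with ZT16 libraries at 8.21 to 16.9 and 80.0 to 99.2 CPM, and Banp and Thbd are high at ZT16.

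Among the genes that were lower at ZT4 and ZT16, Klhl38, Slc20a2, Fbxo32, Oacyl and Gadd45b had the lowest p. Klhl38, which encodes a Kelch-repeat protein, had a minimum of 8.21, a median of 17.3 and a maximum of 30.4 CPM over the ZT4 and ZT16 libraries, and 19.0, 25.1 and 42.0 CPM over the ZT10 and ZT22 libraries. The ranges overlapped because ZT4 was close to ZT10 and ZT22: the mean was 12.3 ± 3.27 CPM (SD, n = 6) at ZT16 against 23.9 ± 4.31 at ZT4, 27.1 ± 3.90 at ZT10 and 25.8 ± 8.79 at ZT22, and the 6 ZT16 libraries (up to 16.9 CPM) lay below all 18 others (from 17.8 CPM). Its 12-h component was -0.62 (log2 of ZT4 and ZT16 over ZT10 and ZT22, SE 0.125), with an adjusted p of 0.275 in edgeR's quasi-likelihood test. Slc20a2, a phosphate transporter, had the same form. It ran from 80.0 to 139 CPM (median 100.4) at ZT4 and ZT16 and from 106.6 to 153.5 CPM (median 125.3) at ZT10 and ZT22, and again all 6 ZT16 libraries (80.0 to 99.2 CPM) lay below the other 18 (from 101.6 CPM). The component was -0.30 (SE 0.0624, adjusted p 0.275, same test).

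Fbxo32, which encodes atrogin-1, the ubiquitin ligase subunit of muscle wasting, ran from 54.0 to 195 CPM (median 137) at ZT4 and ZT16 and from 146 to 319.5 CPM (median 214) at ZT10 and ZT22. Its component was -0.76 (SE 0.169, adjusted p 0.324, edgeR), and -0.56 once muscle and adipocyte scores entered the model as covariates. Both lowest values belonged to ZT16 libraries of the Control group, and the lower of them, 54.0 CPM, came from Control ZT16 replicate 3, the library with the smallest muscle share. In Gadd45b, a stress-inducible gene, ZT4 and ZT16 were alike: the means were 7.19 ± 1.71 CPM at ZT4 and 7.499 ± 0.721 at ZT16, against 11.3 ± 1.99 at ZT10 and 9.40 ± 2.28 at ZT22 (SD, n = 6 each), with a component of -0.49 (SE 0.123, adjusted p 0.496, edgeR). The acyltransferase-like gene Oacyl was near the lower limit of detection, with medians of 1.07 and 2.60 CPM and a component of -0.99 (SE 0.239, adjusted p 0.465, edgeR).

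In the other direction, Banp, Arntl, Dclk1, Thbd and Cadps had the lowest p. Banp, a nuclear DNA-binding protein, ran from 14.0 to 27.9 CPM (median 22.3) at ZT4 and ZT16 and from 8.76 to 20.3 CPM (median 13.9) at ZT10 and ZT22. ZT16 carried most of this, with 24.3 ± 2.08 CPM (SD, n = 6) against 17.1 ± 3.20 at ZT4, 13.2 ± 2.66 at ZT10 and 15.0 ± 3.51 at ZT22. The component of Banp was 0.53 (SE 0.106, adjusted p 0.275, edgeR), and it was 0.59 in Control and 0.47 in HepDKO. Thbd, which encodes the endothelial anticoagulant receptor thrombomodulin, also had its highest mean at ZT16, 79.2 ± 10.4 CPM (SD, n = 6), while ZT4 (55.6 ± 10.2) and ZT22 (57.8 ± 8.72) were close and ZT10 was lowest (45.6 ± 4.67). Its component of 0.37 (SE 0.0835, adjusted p 0.324, edgeR) was 0.44 with the muscle and adipocyte covariates, at an adjusted p of 0.0553.

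Dclk1, a microtubule-associated kinase of neurons and tuft cells, and Cadps, which primes dense-core vesicles for release, were closer to an alternation. The 6 ZT4 libraries of Dclk1 (19.8 to 24.3 CPM) lay above all 12 of ZT10 and ZT22 (up to 19.7 CPM), but those of ZT16 (14.7 to 22.5 CPM) overlapped them. The component was 0.40 (SE 0.088, adjusted p 0.324, edgeR). For Cadps the means were 5.83 ± 1.14 CPM at ZT4 and 5.59 ± 1.03 at ZT16, against 3.52 ± 0.843 at ZT10 and 4.35 ± 0.861 at ZT22 (SD, n = 6 each), and the component was 0.56 (SE 0.127, adjusted p 0.324, edgeR). Hcn4, a pacemaker ion channel gene called by the voom fit only, reached 195 ± 47.97 CPM at ZT16 against means of 86.6 to 113 CPM at the other time points, and its 24-h component passed the test (adjusted p 0.000825, edgeR).

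The clock genes, all 19 of which were tested, had none past the threshold for the 12-h component in edgeR, while DESeq2 called Arntl (0.71, adjusted p 0.0199). In edgeR 15 of the 19 passed the test for the 24-h component. At an unadjusted p under 0.05, 2 were higher (Arntl and Npas2) and 4 lower (Cry1, Per1 and Ciart among them) at ZT4 and ZT16, against 3.70% and 3.37% of all genes, and the median component was -0.09 against -0.01 over all genes. With the muscle and adipocyte scores as covariates this median was 0.015, of the opposite sign, with 2 members higher and 2 lower at that p. Arntl ran from 11.7 to 39.7 CPM (median 19.1) at ZT4 and ZT16, inside its range of 2.52 to 53.7 CPM (median 22.6) at ZT10 and ZT22. Its profile was a trough at ZT10, where 6 libraries had 2.52 to 5.85 CPM and all others at least 11.7 CPM, and a peak at ZT22 with 46.1 ± 5.32 CPM (SD, n = 6). The 12-h component was 0.70 (SE 0.151, adjusted p 0.324) beside a 24-h amplitude, mean to peak, of 1.79 on the log2 scale (adjusted p 8.21e-10), both by edgeR. Taken as an amplitude, mean to peak, the 12-h component was 0.35. Whether levels or their logarithms are averaged decides the sign for this gene: the mean CPM was 23.0 at ZT4 and ZT16 and 25.02 at ZT10 and ZT22, and a fit with only the pair of times and genotype, without separate means for the 4 times, gave -0.14 (SE 0.487).

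Npas2, the partner of BMAL1 in place of CLOCK, behaved like Arntl in this respect, with means of 9.96, 0.933, 4.53 and 17.5 CPM at ZT4, ZT10, ZT16 and ZT22, a component of 0.67 (SE 0.270) and -0.37 in the fit of pairs. The same reversal met Per2 (0.08 and -0.07), Per3 (0.21 and -0.17), Nr1d2 (0.21 and -0.24), Dbp (0.14 and -0.78) and Bhlhe40 (0.07 and -0.02). Cry1, Per1 and Ciart, described below, were below 0 in both fits. Clock (0.17) also had the same sign in both. So did Nr1d1 (-0.14), Cry2 (-0.17), Rora (-0.18), Bhlhe41 (-0.14), Tef (-0.09), Hlf (-0.04) and Nfil3 (-0.10). None of these 8, from Clock to Nfil3, had an unadjusted p under 0.05. Single libraries moved many of these small values. Without HepDKO ZT4 replicate 3, Per2 turned to -0.10, and Per3 was 0.11, Dbp 0.02, Bhlhe41 -0.21, Tef -0.17 and Hlf -0.13. Hlf turned to 0.02 without HepDKO ZT4 replicate 1. Without HepDKO ZT22 replicate 3, Nfil3 turned to 0.03, and Clock was 0.10, Cry2 -0.10, Tef -0.05 and Bhlhe40 0.12. Nr1d1 was -0.08 without Control ZT4 replicate 1, Bhlhe40 was 0.01 without Control ZT4 replicate 3, Bhlhe41 was -0.08 without Control ZT4 replicate 2, Dbp was 0.21 without Control ZT4 replicate 1, Per2 was 0.26 without Control ZT22 replicate 1 and Nfil3 was -0.24 without HepDKO ZT4 replicate 1.

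**Figure D2:**
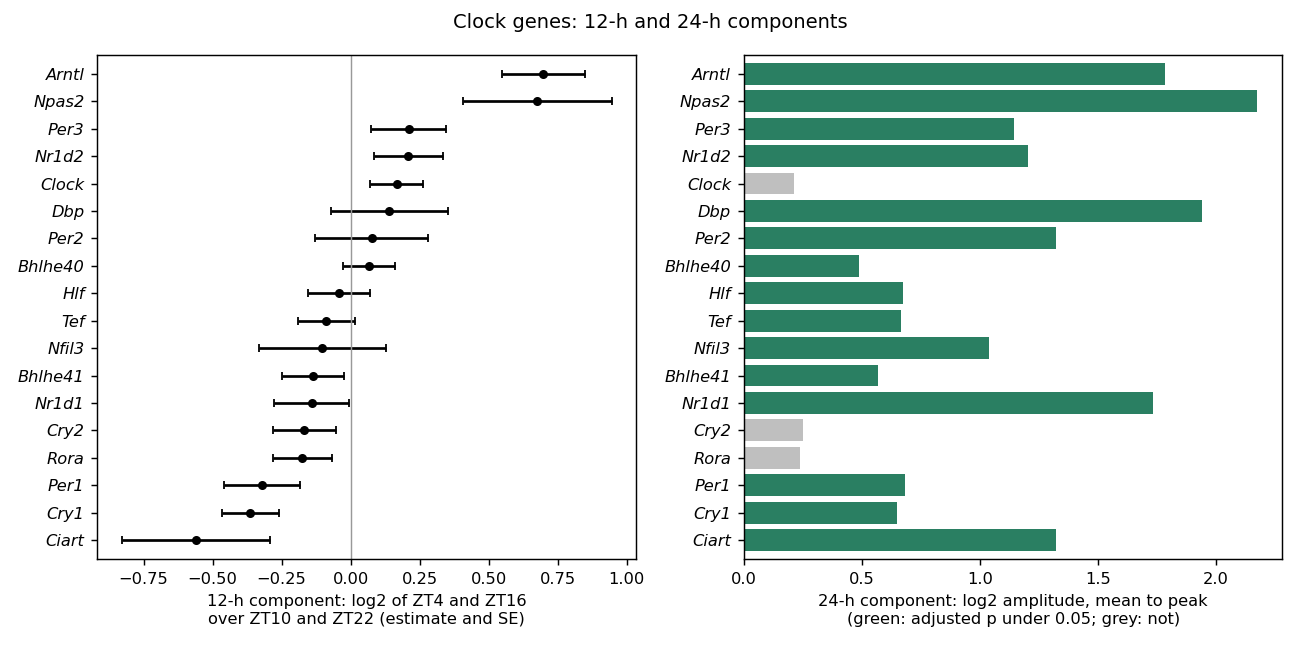
Left, the 12-h component of 18 clock genes on the log2 scale with its SE as a bar, in order of size; right, the 24-h amplitude of the same genes, mean to peak on the log2 scale, green where the adjusted p was under 0.05. The 12-h components lie between -0.56 and 0.70, and 15 of the 18 amplitudes are green. The component is the full difference between the pairs of times, so the sides differ in measure.

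The clock genes with components below 0 at an unadjusted p under 0.05 include targets and repressors of BMAL1. Cry1, a repressor of CLOCK and BMAL1, had a mean of 11.5 ± 2.11 CPM (SD, n = 6) at ZT4 and 18.3 ± 3.57 at ZT10, and then 26.1 ± 2.14 at ZT16 and 27.8 ± 6.16 at ZT22. Its component was -0.36 (SE 0.103, adjusted p 0.554, edgeR), and the 6 ZT4 libraries lay below the other 18. Ciart, a repressor also known as CHRONO, was highest at ZT10 (11.3 ± 1.98 CPM, SD, n = 6) and at or under 4.33 CPM in the other means, with a component of -0.56 (SE 0.268). Per1 had its highest mean at ZT10 (134 ± 15.2 CPM) and its lowest at ZT16 (56.5 ± 18.3 CPM), with a component of -0.32 (SE 0.138), which was -0.19 without Control ZT22 replicate 1.

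Promoters are shown for 3 clock genes and 1 ER chaperone gene described here, chosen because they hold the short motifs by which these pathways are known to be driven. They were taken from RefSeq (GRCm38.p6), run 5′ to 3′ on the strand of the gene and span 250 bases before to 50 bases after the start. Capitals in Cry1 and Ciart mark the E-box CACGTG, bound by CLOCK and BMAL1, capitals in Arntl mark the half-site AGGTCA, bound by ROR and REV-ERB proteins, and capitals in Hspa5 mark the outer blocks of the ER stress response element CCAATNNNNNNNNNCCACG. Both strands were searched. The E-box was in 7.15% of 32851 promoter windows of 300 bases, the half-site in 16.3% and the ER stress response element in 0.119%. A match describes the letters and shows no binding.
Cry1, chr10:85185005-85185304, minus strand: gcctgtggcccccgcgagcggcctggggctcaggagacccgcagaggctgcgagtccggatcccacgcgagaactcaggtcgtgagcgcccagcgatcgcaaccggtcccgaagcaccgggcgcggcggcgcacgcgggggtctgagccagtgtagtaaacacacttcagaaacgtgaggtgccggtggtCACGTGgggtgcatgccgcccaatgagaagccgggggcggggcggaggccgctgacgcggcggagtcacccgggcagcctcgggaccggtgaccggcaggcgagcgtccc
Ciart, chr3:95882179-95882478, minus strand: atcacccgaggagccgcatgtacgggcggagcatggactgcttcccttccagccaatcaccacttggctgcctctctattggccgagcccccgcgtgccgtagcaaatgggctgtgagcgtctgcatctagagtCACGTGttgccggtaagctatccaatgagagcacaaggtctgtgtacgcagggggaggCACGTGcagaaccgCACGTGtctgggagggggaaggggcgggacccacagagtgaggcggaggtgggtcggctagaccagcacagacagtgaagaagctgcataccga
Arntl, chr7:113207261-113207560, plus strand, 1 of 2 listed starts: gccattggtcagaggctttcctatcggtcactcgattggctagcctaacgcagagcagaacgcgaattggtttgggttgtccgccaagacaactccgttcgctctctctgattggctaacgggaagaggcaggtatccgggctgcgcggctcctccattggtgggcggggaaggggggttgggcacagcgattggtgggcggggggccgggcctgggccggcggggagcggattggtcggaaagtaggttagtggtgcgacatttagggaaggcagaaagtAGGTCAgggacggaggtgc
Hspa5, chr2:34771840-34772139, plus strand: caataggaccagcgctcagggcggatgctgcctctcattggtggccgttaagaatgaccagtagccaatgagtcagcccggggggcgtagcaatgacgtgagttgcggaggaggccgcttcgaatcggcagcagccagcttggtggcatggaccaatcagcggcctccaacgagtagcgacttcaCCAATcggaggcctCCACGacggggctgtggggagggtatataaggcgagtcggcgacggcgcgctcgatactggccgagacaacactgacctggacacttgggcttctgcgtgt
Cry1 holds 1 E-box, beginning 60 bases before the start, and Ciart holds 3, at 116, 58 and 44 bases before it. The half-site of Arntl begins at base 32 after the start, and the element of Hspa5 begins 65 bases before it. The windows of Npas2 and Xbp1, not shown, held none of the 3 motifs, Per1 held at most 1 E-box and 1 half-site in either of its 2 windows, and Hspa5 also held 1 half-site, not capitalised.

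The ER chaperone and unfolded protein response genes had the most even direction among the stress lists: 23 of 26 tested had a positive component, with a median of 0.10. None passed the threshold, and 6 were higher and 0 lower at an unadjusted p under 0.05, against 3.70% higher among all genes. Manf, a secreted ER stress protein, ran from 15.7 to 47.1 CPM (median 30.6) at ZT4 and ZT16 and from 17 to 29.4 CPM (median 21.9) at ZT10 and ZT22. Its component was 0.44 (SE 0.112, adjusted p 0.496, edgeR), and its mean of 37.0 ± 7.86 CPM (SD, n = 6) at ZT16 stood against means of 20.8 to 24.3 CPM at the other times. Xbp1, the transcription factor activated by splicing in ER stress, separated completely at ZT16, with 87.0 to 111 CPM in 6 libraries and 63.0 to 86.7 CPM in the other 18. The component of Xbp1 was 0.20 (SE 0.0566, adjusted p 0.554, edgeR). Hspa5, which encodes the ER chaperone BiP, had means of 279 ± 28.5, 248 ± 37.8, 388 ± 92.1 and 310 ± 66.5 CPM at ZT4, ZT10, ZT16 and ZT22 (SD, n = 6 each) and a component of 0.25 (SE 0.1001). Within the list, ZT10 was the farthest time point and low in 12 genes, and ZT16 was farthest and high in 8.

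In the heat shock and cold-inducible list ZT16 stood out. Of 15 tested, 6 were higher and 1 lower at an unadjusted p under 0.05 (3.70% and 3.37% among all genes), none passed the threshold, and ZT16 was the farthest time point and high in 10. Hspa1a and Hspa1b, which encode inducible HSP70, are near-identical copies between which reads cannot be assigned with certainty. The 6 ZT16 libraries of Hspa1a had 8.97 to 34.6 CPM and the other 18 had 3.56 to 9.62 CPM, so that the ranges barely overlapped, and the component was 0.67 (SE 0.211, adjusted p 0.607, edgeR). The ZT4 mean, 5.42 ± 1.27 CPM (SD, n = 6), was close to that of ZT10, 5.26 ± 2.01 CPM. Hspa1b had a component of 0.74 (SE 0.233), and Dnajb1, a co-chaperone of HSP70, one of 0.36 (SE 0.105). Cirbp, a cold-inducible RNA-binding protein and the 1 member that was lower, was named after its values were seen and had a component of -0.30 (SE 0.0999). Both Hspa1a (adjusted p 0.0042) and Hspa1b (adjusted p 0.00671) passed edgeR's test for the 24-h component. The highest ZT16 value of Hspa1a came from Control ZT16 replicate 3, a shallow library.

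**Figure D3:**
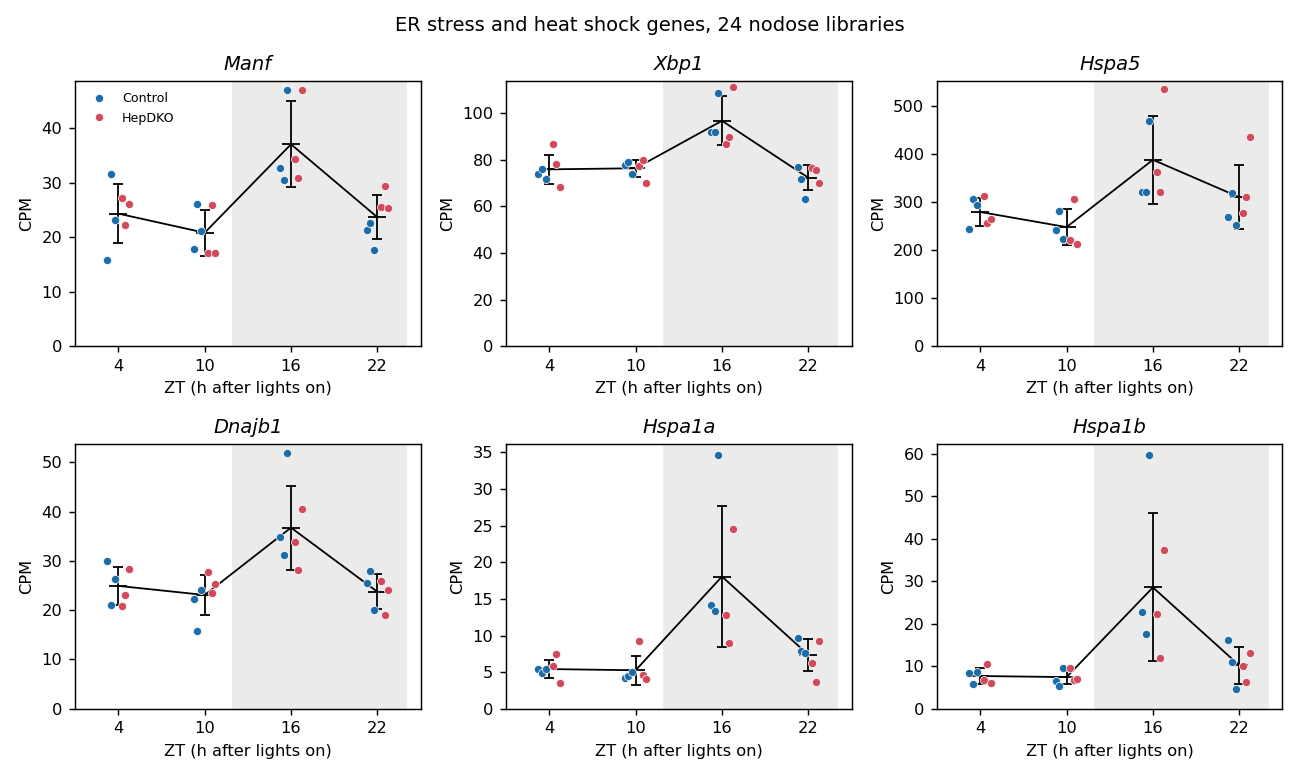
CPM of 3 ER stress genes (top) and 3 heat shock genes (bottom) against ZT in hours, on linear axes from 0, with 1 point per library (blue Control, red HepDKO), means of 6 libraries and SD in black, and the dark phase shaded. In each panel the ZT16 mean is the highest, and the ZT4 mean lies near those of ZT10 or ZT22.

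All 20 genes of the skeletal muscle list had a component below 0 (median -0.51), and none passed the threshold. The 1 member at an unadjusted p under 0.05 was Myh1 (a fast myosin heavy chain, -0.76, SE 0.344), which was -0.50 without HepDKO ZT22 replicate 3, and 3.37% of all genes were lower at that p. Acta1, skeletal actin, ran from 662 to 7685 CPM (median 4614) at ZT4 and ZT16 and from 2855 to 10390 CPM (median 5862) at ZT10 and ZT22, and its component was -0.49 (SE 0.300). The muscle score, the mean log2(CPM + 1) of the 20 genes, ran from 7.41 to 10.6 (median 9.87) at ZT4 and ZT16 and from 9.45 to 11.1 (median 10.2) at ZT10 and ZT22. The difference of means was -0.57, with p = 0.0921 in a two-sided exact permutation test within genotype and 0.485 after Benjamini-Hochberg adjustment over 17 cell type lists. It was -1.10 in Control and -0.04 in HepDKO. The 2 lowest scores belonged to Control ZT4 replicate 1 and Control ZT16 replicate 3, the 2 shallowest libraries, and without the second of these the difference was -0.39. In pooled tissue, fewer muscle cells and less RNA per muscle cell cannot be told apart.

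Fat behaved less evenly. The adipocyte list had 14 of 16 components below 0 (median -0.19) and 0 members at an unadjusted p under 0.05, with Lpl, lipoprotein lipase, at -0.37 (SE 0.218). The adipocyte score differed by -0.18 (exact permutation p = 0.525, adjusted 0.744), and by -0.04 without Control ZT4 replicate 1 and -0.32 without Control ZT22 replicate 2. Of the 9 brown adipocyte genes tested, all had ZT10 as the farthest time point, on the high side. This was not particular to brown fat. The same held for 29 of 30 oxidative phosphorylation genes, 15 of 20 skeletal muscle genes and 9 of 14 fatty acid oxidation and fasting genes. Cox7a1 is in both the brown adipocyte and the oxidative phosphorylation list. Elovl3, a fatty acid elongase of brown fat, had 0 to 1.17 CPM at ZT4 and ZT16 and 0.381 to 4.93 CPM at ZT10 and ZT22, with a component of -1.61 (SE 0.425, adjusted p 0.548, edgeR), the only member at an unadjusted p under 0.05. Ucp1, the uncoupling protein of brown fat, reached 139 CPM in Control ZT10 replicate 1 and 62.03 CPM in the highest ZT16 library, against medians of 2.07 CPM at ZT4 and ZT16 and 4.81 CPM at ZT10 and ZT22. Its means were 9.64, 38.5, 18.5 and 1.73 CPM at ZT4, ZT10, ZT16 and ZT22, and its component was 0.79 (SE 0.909), opposite in sign to the difference of the medians. This sign rested on 1 library: the component was -0.35 without Control ZT4 replicate 3 and 1.20 without Control ZT10 replicate 1, and it was -0.50 by limma voom and -0.19 in the fit of pairs. Of the 9 brown adipocyte components 3 were above 0, and the median was -0.17, or 0.05 with the muscle and adipocyte covariates. The score of this list differed by -0.36 (exact permutation p = 0.262, adjusted 0.598), and by -0.50 to -0.21 with 1 library left out, the latter without Control ZT10 replicate 1.

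**Figure D4:**
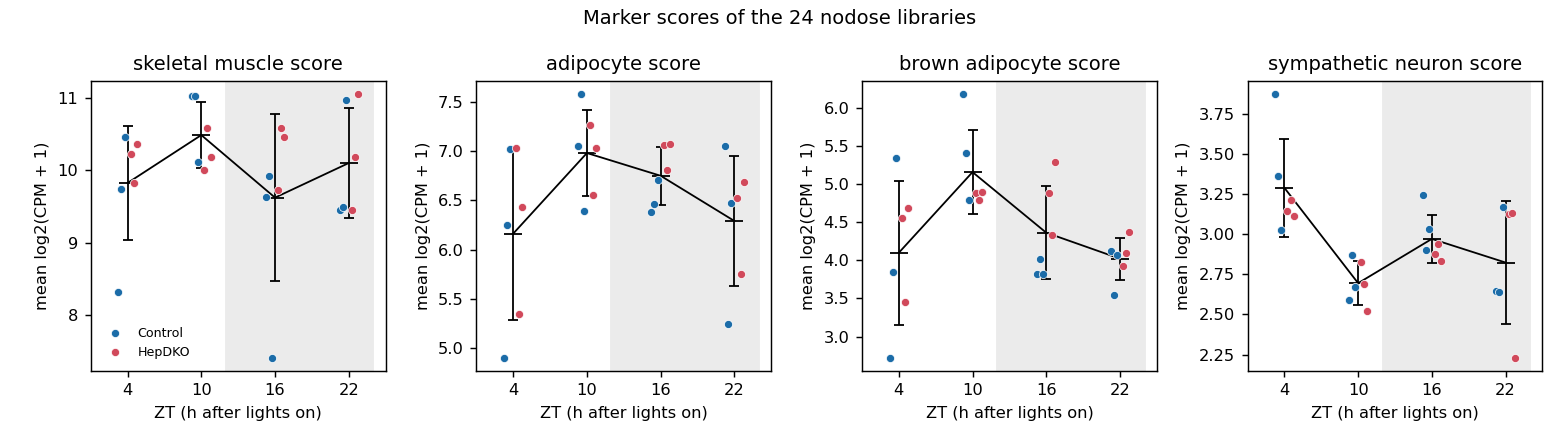
Marker scores, the mean log2(CPM + 1) over the tested genes of a cell type list, against ZT in hours, with 1 point per library (blue Control, red HepDKO), means of 6 libraries and SD in black, and the dark phase shaded; the axes do not start at 0. The lowest muscle scores are 2 Control libraries at ZT4 and ZT16, and the mean score of the sympathetic neuron list is highest at ZT4.

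Genes of energy metabolism, which muscle expresses strongly, lay on the same side as the muscle score. All 30 nuclear-encoded genes of oxidative phosphorylation tested had components below 0 (median -0.31), 3 of them at an unadjusted p under 0.05 (3.37% of all genes were lower at that p), and the median was -0.02 with the muscle and adipocyte scores as covariates. The 3 were Ndufv1 (-0.50, SE 0.218) and Ndufs1 (-0.40, SE 0.188) of complex I and Atp5b (-0.34, SE 0.165) of the ATP synthase, and with the covariates they were -0.15, -0.07 and -0.05. Without HepDKO ZT22 replicate 3 alone, Ndufv1 was -0.23. Fatty acid oxidation and fasting genes had 13 of 14 components below 0 (median -0.31, and -0.09 with the covariates). The 3 at an unadjusted p under 0.05 were Slc25a20, the carnitine carrier (-0.41, SE 0.173), Acadvl, the very-long-chain acyl-CoA dehydrogenase (-0.49, SE 0.214), and Acot1, an acyl-CoA thioesterase (-0.31, SE 0.142). Of these, Acot1 was -0.41 with the covariates and Acadvl -0.16, and Acadvl was -0.27 without HepDKO ZT22 replicate 3. Proteasome subunits had 29 of 31 components below 0 (median -0.13, and -0.04 with the covariates), with Psmd2 (-0.22), Psmd4 (-0.27), Psmb4 (-0.15), Psmb7 (-0.24) and Psmd7 (-0.15) at an unadjusted p under 0.05. Without HepDKO ZT22 replicate 3, Psmb4 was -0.10 and Psmd7 -0.09. None of these lists had a member past the threshold. With both covariates the number of genes at an unadjusted p under 0.05 was 937 in place of 1051, with 0 called by edgeR.

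**Figure D5:**
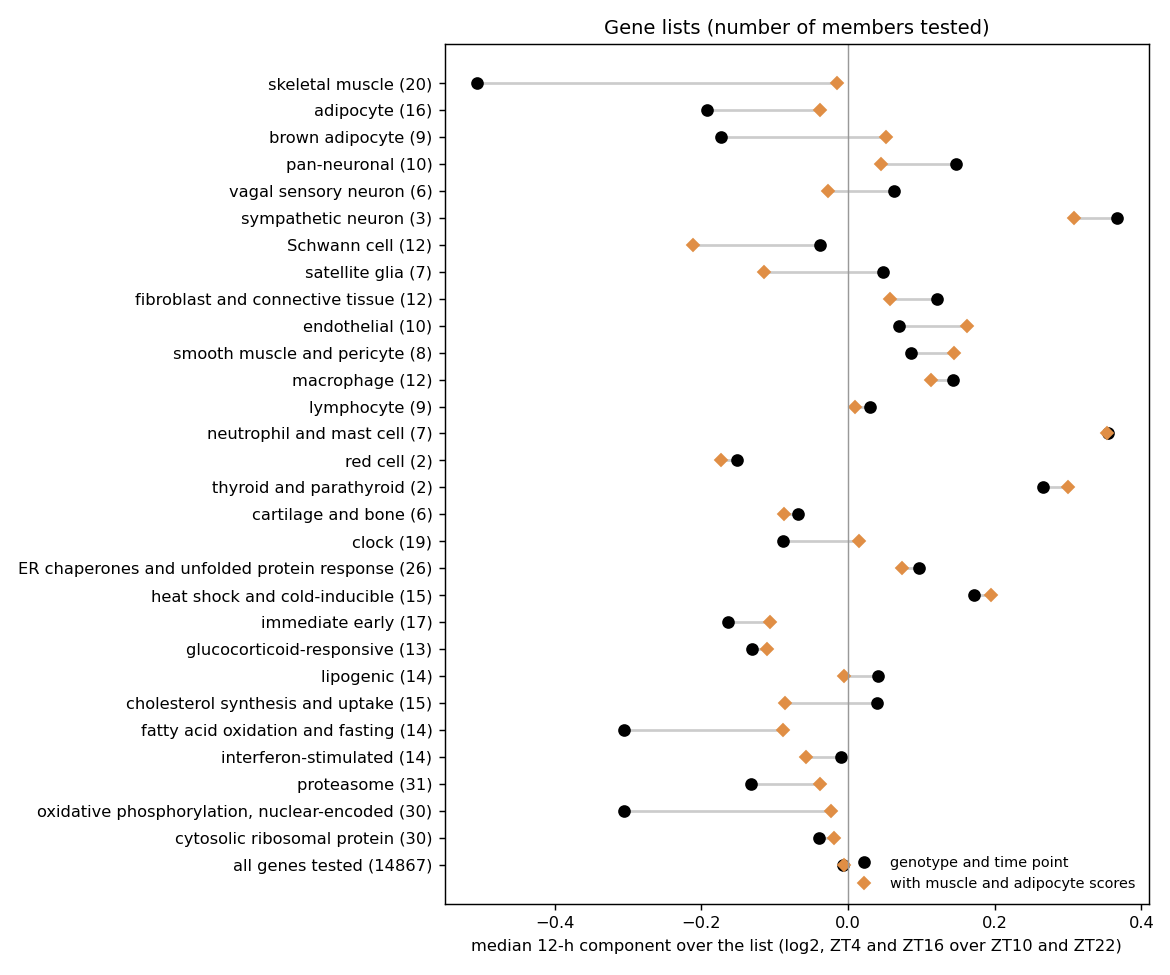
Median 12-h component (log2) of each gene list with the number of members tested in brackets, in the fit on genotype and time point (black circles) and with muscle and adipocyte scores as covariates (orange diamonds). The medians of skeletal muscle (-0.51 to -0.02) and oxidative phosphorylation (-0.31 to -0.02) come close to 0 with the covariates, the first by construction since the muscle score is the mean of the same genes, and those of neutrophil and mast cell, heat shock and ER genes stay positive.

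Neuronal and nerve cell genes gave values in both directions. Among pan-neuronal genes 2 of 10 were higher at an unadjusted p under 0.05, against 3.70% of all genes. These were Snap25 (0.81, SE 0.210, adjusted p 0.548, edgeR) and Syt1 (0.79, SE 0.320), which encode proteins of synaptic vesicle release. Snap25 ran from 4.17 to 29.9 CPM (median 7.83) at ZT4 and ZT16 and from 2.86 to 10.5 CPM (median 5.21) at ZT10 and ZT22, and the value of 29.9 CPM was that of Control ZT4 replicate 1, the shallowest library. The pan-neuronal score differed by 0.18 (exact permutation p = 0.114, adjusted 0.485), and by 0.10 without that library. The score of the list named sympathetic neuron rests on 3 tested genes of 10, and defining genes of such neurons were nearly absent over the 24 libraries, with 5 counts of Th and 1 of Dbh, the enzymes of noradrenaline synthesis, and 4 of Npy. The score ran from 2.83 to 3.87 (median 3.07) at ZT4 and ZT16 and from 2.23 to 3.17 (median 2.68) at ZT10 and ZT22, with a difference of 0.37 (exact permutation p = 0.00332, adjusted 0.0564). The adjusted p was 0.0488 from library totals without TMM factors, and with 1 library left out it ran from 0.0199 (without HepDKO ZT22 replicate 2) to 0.116 (without HepDKO ZT22 replicate 3). It was also under 0.05 without Control ZT16 replicate 2, Control ZT22 replicate 3, HepDKO ZT16 replicate 3 or HepDKO ZT22 replicate 1. The noradrenaline transporter gene Slc6a2 (0.37, SE 0.134) and the chromogranin gene Chgb (0.83, SE 0.345) had an unadjusted p under 0.05, and the vesicular transporter gene Slc18a2 (0.16, SE 0.161, and 0.07 without HepDKO ZT22 replicate 3) did not. The vagal sensory score, over 6 genes, differed by 0.06 (exact permutation p = 0.384, adjusted 0.726), and by 0.02 without Control ZT10 replicate 1. The median component of these genes was 0.06, and -0.03 with the muscle and adipocyte covariates.

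Schwann cell genes had components close to 0, with a median of -0.04 and 0 of 12 at an unadjusted p under 0.05. With the muscle and adipocyte covariates the median was -0.21 and 9 of the 12 were lower at an unadjusted p under 0.05, against 3.11% of all genes in that fit. Egr2, the transcription factor that drives myelination, was -0.25 (SE 0.122) and then -0.41. Egr2 also passed the test for the 24-h component (adjusted p 0.000332, edgeR). Control ZT4 replicate 1 and Control ZT16 replicate 3 had low muscle scores (8.32 and 7.41). Their Schwann cell scores were 10.14 and 9.951, against a median of 9.475 at ZT4 and ZT16. How far the shift with the covariates rests on these 2 libraries was not tested.

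The neutrophil and mast cell list had the most positive median of the cell type lists with more than 3 members tested. All 7 of its genes tested, 4 of mast cells and 3 of neutrophils, had positive components (median 0.36, and 0.35 with the covariates), and 4 had an unadjusted p under 0.05 without passing the threshold, against 3.70% higher among all genes. These were Cpa3, mast cell carboxypeptidase (0.40, SE 0.116, adjusted p 0.554, edgeR), Kit, the receptor for stem cell factor (0.46, SE 0.144), and the proteases Mcpt4 (0.35, SE 0.135) and Cma1 (0.32). Cpa3 ran from 14.7 to 40.4 CPM (median 25.5) at ZT4 and ZT16 and from 14.8 to 25.2 CPM (median 19.3) at ZT10 and ZT22, so the ranges overlapped. The score differed by 0.32 (exact permutation p = 0.0695, adjusted 0.485), and by 0.23 without HepDKO ZT4 replicate 1. ZT4 carried this difference: the mean score was 3.88 there (SD 0.536), against 3.33 at ZT10, 3.38 at ZT16 and 3.28 at ZT22. Fibroblast genes had 10 of 12 components above 0 (median 0.12) and macrophage genes 11 of 12 (median 0.14), with 0 of each at an unadjusted p under 0.05. Vwf, the von Willebrand factor of endothelial cells, was the 1 of 10 endothelial genes that had (0.45, SE 0.188).

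The component was then examined within each genotype, which asks whether deletion in hepatocytes is accompanied by another 12-h pattern in the ganglion. In Control, edgeR called 0 genes, and 1416 (9.52%) had an unadjusted p under 0.05, 549 higher (3.69%) and 867 lower (5.83%) at ZT4 and ZT16. DESeq2 called 1, Fbxo32 (-1.08, adjusted p 0.0481). In HepDKO, edgeR and DESeq2 called 0 genes, and 447 (3.01%) had an unadjusted p under 0.05 in edgeR. The test of the difference called 0 genes in both tools, with 630 (4.24%) at an unadjusted p under 0.05 and a lowest adjusted p of 0.868 in edgeR. The Control count rested on single libraries: it was 718 without Control ZT10 replicate 1, the library with the largest muscle share, 2324 without Control ZT10 replicate 3, 615 without the 2 shallowest libraries and 696 with the muscle and adipocyte covariates. The HepDKO count was 1156 without HepDKO ZT22 replicate 1, and the count for the difference was 395 without Control ZT10 replicate 1, 322 without the 2 shallowest libraries and 1410 without Control ZT10 replicate 3.

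Within Control the lowest p belonged to Hcn4 (0.70), Fbxo32 (-1.07) and Clpx, a mitochondrial protease chaperone (-0.44), and the same genes had components of 0.23, -0.45 and 0.15 in HepDKO. Within HepDKO they were Oacyl (-1.35, and -0.60 in Control), the cadherin gene Cdh18 (1.72, and 0.88 in Control) and the phosphodiesterase gene Pde4c (-0.91, and -0.41 in Control). For the difference, HepDKO minus Control, they were Clpx (0.59), Nadsyn1, an NAD synthetase (-0.91), and Sox6os (1.66), whose reads cannot be told apart from those of Sox6 if counting ignored strand. None of these passed the threshold in edgeR.

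Between tissues, the 12-h component of the nodose libraries minus that of the arcuate libraries passed the threshold in 0 of 17478 genes by edgeR (lowest adjusted p 0.0802), with 1344 genes (7.69%) at an unadjusted p under 0.05, and in 0 genes by limma voom with a variance per tissue, with 922. The lowest p belonged to Cadps (0.56 in nodose, -0.02 in arcuate), Tagln3, a neuronal calponin-like gene (0.77 and 0.02), and Cdh18 (1.24 and -0.11), all at an adjusted p of 0.0802 by edgeR. Without HepDKO ZT4 replicate 3 of the nodose, 8 genes were called, and 0 without the arcuate library of HepDKO ZT10 replicate 3, which also held Xist counts (1914) against its male label. Arntl, at 0.70 in nodose, was 0.02 in arcuate, with an adjusted p of 0.187 for the difference (edgeR). Hspa1b was 0.74 and 0.78, Dnajb1 0.36 and 0.31 and Xbp1 0.20 and 0.17. Immediate early genes had a median of -0.16 in nodose, with 1 of 17 (Btg2, -0.27) at an unadjusted p under 0.05, and 0.32 in arcuate, with 10 of 18 higher at that p, where 7.43% of all arcuate genes were under it and 3.86% were higher. Arcuate libraries were prepared by a sequencing company and nodose libraries with a ribosomal RNA depletion kit, so a difference between tissues and one between preparations cannot be told apart.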

How the data were processed

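RNA was sequenced in 48 libraries, 24 of them from pooled left nodose ganglia. Per the submitters' processing notes, the tools were FastQC 0.11.7, Trim Galore 0.6.10 and STAR 2.7.10b with the build mm10, and the counting tool, its strand setting and the annotation are not given in the sources used here. The values deposited by the authors are raw counts per gene symbol (25229 symbols), and no column lacked a sample.

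Here, R 4.3.3 with edgeR 4.0.16 and limma 3.58.1 was used. The filter filterByExpr, given the 8 groups, left 14867 genes, and TMM factors scaled the libraries. A model with a mean per time point plus genotype was fitted by robust quasi-likelihood, and a model of 8 group means served the contrasts within and between genotypes. The 12-h component is the mean of ZT4 and ZT16 minus that of ZT10 and ZT22 on the log2 scale. A 48-library fit tested the tissue difference. P-values were adjusted over all genes tested, with a threshold of 0.05. CPM are counts scaled to library size and TMM factors. Marker scores are means of log2(CPM + 1) over the tested members of a list, with the pair of times permuted within genotype over all 853776 arrangements. The method was tested on simulated data.

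The genes named are the 5 with the lowest p in each direction, the 3 with the lowest p in each other contrast, members of gene lists with the lowest p, clock genes and markers of composition and label. Some of these genes are not reported here. The members and lists were chosen with earlier results of these data known. Alternatives were DESeq2 1.42.0, limma voom, sva 3.50.0, RLE factors, no filter, other designs, muscle and adipocyte covariates, a replicate block, each library left out in turn and, chosen after seeing the data, the 2 shallowest libraries left out. In the nodose, pools are the replicates, and p-values measure the spread between pools alone. No library repeated another of its group: the lowest chi-square per degree of freedom over 24 replicate pairs was 8.12. Promoter sequences came from RefSeq (GRCm38.p6), and promoters of several genes named were not used here.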

Additional observations from a re-analysis of the deposited data

How the results depend on the processing

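The count of genes with a 12-h component stayed at 0 with RLE factors, without a filter, with 8 group means, with the pair of times alone, with muscle or adipocyte scores or both, without the 2 shallowest libraries and with any 1 of the 24 libraries left out. It was 6 with DESeq2, 3 with limma voom and 1 with a surrogate variable, and in Control it was 1 with DESeq2. Leaving out 1 library at a time gave 0 in either genotype and for the genotype difference, 141 (without Control ZT4 replicate 2) to 327 (without HepDKO ZT22 replicate 3) for the 24-h component, and 0 to 8 for the tissue difference. The replicate numbers do not pair the libraries: over 84 pairs with the same number the median correlation of deviations was 0.005 (-0.511 to 0.428), and 10 of 24 libraries correlated best with their own number. With the replicate block, 0 genes were called for the 12-h component, in either genotype, for the genotype difference and between tissues, and 212 for the 24-h component. The sympathetic neuron score difference was 0.37 with the replicate block (adjusted exact permutation p 0.0264) and 0.44 from library totals without TMM (0.0488), and 0.31 to 0.41 with 1 library left out.

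Without TMM the score differences of Schwann cells (0.050), smooth muscle (0.048) and lymphocytes (0.041) changed sign, as did satellite glia (-0.012) and smooth muscle (0.093) without the 2 shallowest libraries. With 1 library left out, score differences ran from -0.079 to 0.031 for Schwann cells, -0.093 to 0.037 for smooth muscle, -0.070 to 0.028 for lymphocytes, -0.0025 to 0.076 for satellite glia and -0.062 to 0.088 for cartilage. The fit of pairs alone turned Arntl (-0.14), Npas2 (-0.37), Per2 (-0.066), Per3 (-0.17), Nr1d2 (-0.24), Dbp (-0.78), Bhlhe40 (-0.015) and Ucp1 (-0.19). Tef turned with the muscle score (0.015), both scores (0.015) and the surrogate variable (0.015). Nfil3 turned with these (0.11, 0.14 and 0.15), with voom (0.10) and without the 2 shallowest libraries (0.021), and Ucp1 turned with voom (-0.50). With 1 library left out, Hlf ran from -0.13 to 0.015, Nfil3 from -0.24 to 0.033, Per2 from -0.10 to 0.26 and Ucp1 from -0.35 to 1.20. The causes were not tested. Depth limits the vagal sensory genes, of which 6 of 22 could be tested.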

Other observations

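Several lists not described above had no member past the threshold for the 12-h component and at most 1 at an unadjusted p under 0.05. Among 13 glucocorticoid-responsive genes the median component was -0.13, and Sgk1, a kinase induced by glucocorticoids, was the 1 at an unadjusted p under 0.05 (-0.25, SE 0.111, and -0.15 without Control ZT22 replicate 1). Lipogenic genes had a median of 0.04 over 14 members, and -0.005 with the muscle and adipocyte covariates. Acacb, the acetyl-CoA carboxylase of the mitochondrial surface, was the 1 at an unadjusted p under 0.05 (-0.43, SE 0.199), and it was -0.13 with the muscle and adipocyte covariates and -0.27 without HepDKO ZT22 replicate 3. Acly, ATP citrate lyase, was 0.33 (SE 0.215), and 0.19 without Control ZT16 replicate 3, with means of 409 CPM at ZT16 and 261 at ZT22 against 146 and 147 at ZT4 and ZT10. Its 24-h component passed edgeR's test (adjusted p 0.0143).

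Genes of cholesterol synthesis and uptake had 12 of 15 components above 0, with a median of 0.04 that turned to -0.09 with the covariates, and interferon-stimulated genes 6 of 14, with a median of -0.01. Cytosolic ribosomal protein genes had 24 of 30 below 0, with a median of -0.04. Of these 3 lists, 0 members had an unadjusted p under 0.05. Of the 212 genes called for the 24-h component, 50 (23.6%) had an unadjusted p under 0.05 for the 12-h component (7.07% of all genes had), 33 higher and 17 lower at ZT4 and ZT16. Over all 212 the median absolute 12-h component was 0.13, beside a median 24-h amplitude of 0.45, both on the log2 scale.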
